A study of Mus musculus with 6 samples.

Results

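The genes described here are 37 of the 37620 gene identifiers counted in each library, chosen by name for their place in the unfolded protein response, the integrated stress response or the heat-shock response. They fall into 8 genes of the ATF4 branch, 4 sensors or sensor-linked factors of the unfolded protein response, 13 genes of folding in the endoplasmic reticulum (ER), 4 genes of ER-associated degradation and 8 cytosolic heat-shock genes. All 37 symbols matched an identifier, and all 37 passed the filter on low counts, with 11 to 8346 counts per gene and library. RNA was sequenced from mature brown fat cells, the floating adipocyte layer left after collagenase digestion, of C57BL/6 mice aged 6 weeks. The KO group carries the label PHOSPHO1 knockout and the WT group the label wild type. Each group has 3 libraries, and each library pooled 3 mice. How the allele was made is not given in the sources used here, and the cells that share the floating layer were not separated further.

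Proteins destined for secretion or for membranes fold in the ER, with the help of chaperones such as BiP (Hspa5) and of enzymes that form disulphide bonds. When unfolded protein accumulates there, the sensors PERK (Eif2ak3), IRE1 (Ern1) and ATF6 slow translation, splice Xbp1 mRNA and release a transcription factor, and chaperone and degradation genes are transcribed. PERK shares its output, translation of ATF4, with kinases that sense amino acid shortage and mitochondrial stress, which is called the integrated stress response. Unfolded protein in the cytosol is met by heat-shock factor 1 (Hsf1) and the Hsp70 and Hsp90 chaperones. Brown adipocytes secrete lipoprotein lipase and adipokines through the ER, and brown fat is known to induce ATF4 target genes under mitochondrial stress.

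Many ER chaperone promoters share the ER stress response element (ERSE), CCAAT and CCACG with 9 free bases between them, which ATF6 binds beside NF-Y. RefSeq promoter windows on GRCm38.p6, 250 bases before to 50 after the start site, were held for 30 of the 37 genes. Atf6, Hyou1, Manf, Hspa8, Hsp90aa1, Hsp90ab1 and Hsf1 had none. The element was found on either strand in 8 of these 30 genes (Hspa5, Hsp90b1, Dnajc3, Pdia6, Calr, Canx, Creld2 and Syvn1), and in 39 of all 32851 windows (0.119%). Here and for the elements below, a gene counted if any of its windows had a match. Shares of all windows count each window by itself, so they are not shares of genes. The windows of the main ER Hsp70 and Hsp90 chaperones are shown whole, because these chaperones stand at the centre of the pathway and their values are given in full further on, with each ERSE in capitals.
Hspa5, chr2:34771840-34772139 (+ strand): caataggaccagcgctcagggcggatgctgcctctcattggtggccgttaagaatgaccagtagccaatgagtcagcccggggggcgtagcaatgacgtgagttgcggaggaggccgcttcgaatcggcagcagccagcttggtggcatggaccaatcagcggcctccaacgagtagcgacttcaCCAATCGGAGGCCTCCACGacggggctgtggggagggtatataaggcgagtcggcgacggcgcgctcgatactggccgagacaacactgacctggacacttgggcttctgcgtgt
Hsp90b1, chr10:86705395-86705694 (- strand): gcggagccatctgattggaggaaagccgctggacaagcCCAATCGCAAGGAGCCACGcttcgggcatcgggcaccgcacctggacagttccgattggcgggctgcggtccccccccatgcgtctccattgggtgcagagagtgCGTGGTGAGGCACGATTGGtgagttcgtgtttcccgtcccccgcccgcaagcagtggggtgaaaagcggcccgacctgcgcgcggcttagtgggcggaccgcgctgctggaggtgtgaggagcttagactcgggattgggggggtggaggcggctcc

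Hsp90b1 held 2 copies of the ERSE, in opposite orientations, and Hspa5 held 1. For the other genes the element is shown with 20 bases on each side, in the direction of the gene, so that the capitals read CCAAT first where it lies on the gene's strand and CGTGG first where it lies on the opposite strand.
Dnajc3 ERSE, chr14:118937807-118937865 (+ strand): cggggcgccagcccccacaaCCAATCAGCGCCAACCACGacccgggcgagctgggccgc
Canx ERSE, chr11:50325780-50325838 (- strand): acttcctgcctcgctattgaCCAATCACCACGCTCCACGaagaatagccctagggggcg
Pdia6 ERSE, chr12:17266471-17266529 (+ strand): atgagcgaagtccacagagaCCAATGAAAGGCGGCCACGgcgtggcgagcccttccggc
Syvn1 ERSE, chr19:6046512-6046570 (+ strand): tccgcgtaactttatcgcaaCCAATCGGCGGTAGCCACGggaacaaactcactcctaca
Calr ERSE, chr8:84847055-84847113 (- strand): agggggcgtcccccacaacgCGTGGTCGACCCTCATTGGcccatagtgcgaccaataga
Creld2 ERSE, chr15:88819500-88819558 (+ strand): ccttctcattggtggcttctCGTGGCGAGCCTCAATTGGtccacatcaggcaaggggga

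Further elements were searched in the same windows and on both strands. The ERSE-II, ATTGG and CCACG with 1 free base between them, whose last bases are those that end the ERSE, was in Herpud1 alone of the 30 genes and in 0.0365% of all windows. The core of the C/EBP-ATF response element (CARE) bound by ATF4, TGATGNAA, was in 4 of the 30 genes (Trib3, Asns, Chac1 and Herpud1) and in 3.97% of all windows. The heat-shock element (HSE), the units GAA, TTC and GAA with 2 free bases in each gap, was in Hsph1 alone of the 30, on the opposite strand so that it reads TTC first, and in 0.603% of all windows. Other spellings of the HSE were not searched, and the heat-shock genes Hspa8, Hsp90aa1, Hsp90ab1 and Hsf1 had no window. The Hsph1 match lies in a window after the first held for that gene, while the other matches shown lie in the first window of their gene. The unfolded protein response element, TGACGTGG, was in none of the 30 genes and in 0.676% of all windows. The matches in Asns, Herpud1 and Hsph1 are shown, since each is a target gene whose values follow.
Asns CARE, chr6:7693205-7693252 (- strand): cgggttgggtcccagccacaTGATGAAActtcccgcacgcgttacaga
Herpud1 ERSE-II, chr8:94386357-94386407 (+ strand): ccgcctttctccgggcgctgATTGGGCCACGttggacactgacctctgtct
Hsph1 HSE, chr5:149636268-149636320 (- strand): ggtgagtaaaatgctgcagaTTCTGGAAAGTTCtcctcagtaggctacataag

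Library totals ran from 10576800 to 13750632 counts in the KO-labelled libraries and from 12132987 to 14239307 in WT. Mitochondrial genome genes held 39.1%, 54.3% and 56.5% of the counts in KO-labelled libraries 1, 2 and 3 and 40.7%, 39.3% and 54.3% in WT. The factors that scaled the library sizes ran from 0.80 to 1.07 in the KO-labelled libraries and from 0.92 to 1.25 in WT. Phospho1 itself was not lower under the KO label, with 18, 15 and 17 counts in the KO-labelled libraries and 13, 5 and 5 in WT. Its log2 fold change, KO over WT, was 1.53 (adjusted p = 0.056, SE 0.46), with p-values from edgeR's quasi-likelihood test adjusted over all tested genes, and directions below are those of the labels. Levels are CPM, counts per 1000000 after scaling of the library sizes. Of 12 brown adipocyte markers, all tested, 1 was higher (Cox7a1), 2 were lower (Dio2 and Ppargc1a) and 9 did not pass. Ucp1, among those 9, averaged 4196 CPM in the KO-labelled libraries and 2664 CPM in WT. Skeletal muscle markers, 9 of 12 tested and 0 called (0 at an unadjusted p under 0.05), summed to 47.5 to 136 CPM in the KO-labelled libraries and 47.8 to 1299.8 CPM in WT, where WT 3 alone held the upper end. Erythroid markers (2 of 5 higher) summed to 1209.7 to 3505 CPM in the KO-labelled libraries and 366 to 1378 CPM in WT. Macrophage and leukocyte markers (1 of 10 higher, 1 lower) summed to 251 to 528 CPM in the KO-labelled libraries and 123 to 234 CPM in WT. Lyz2, the gene called higher, held most of that sum, at 391, 197 and 458 CPM under the KO label and 159, 161 and 68.2 CPM in WT. Cd163 was the gene called lower, and of the 10 fold changes 6 were above 0 and 4 below. Stromal markers (2 of 8 higher) summed to 1066 to 1428 CPM in the KO-labelled libraries and 829 to 937 CPM in WT. Endothelial markers (3 of 10 lower) summed to 449.6 to 525 CPM in the KO-labelled libraries and 414 to 668 CPM in WT, and mural markers (3 of 8 higher, 1 lower) to 509 to 950.2 CPM in the KO-labelled libraries and 871 to 1330.1 CPM in WT. Rgs5, which did not pass, was the largest part of the mural sum, at 614, 497 and 246 CPM under the KO label and 1145, 818 and 714 CPM in WT. Acta2, Tagln and Myl9 were the mural markers called higher and Abcc9 the one called lower. In the same test 7.52% of all tested genes were called lower and 1.63% higher. No marker of these lists was at 0 in all 6 libraries. The part of these cells in the values below was not tested, and in these bulk libraries a smaller number of cells of a type cannot be told apart from less RNA per cell.

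In the KO-labelled libraries 4 of the 37 genes fell and 1 rose. The ER stress sensor Atf6, the ER Hsp90 chaperone Hsp90b1, the ER co-chaperone Dnajc3 and the cytosolic Hsp70 partner Hsph1 were lower, and the ER-resident secreted factor Manf was higher. The 5 calls are 13.5% of the 37 genes, against 9.16% of all 12068 tested genes (edgeR quasi-likelihood test, adjusted p under 0.05 over all tested genes). By direction, 10.8% of the 37 were lower and 2.7% higher, against 7.52% and 1.63% of all genes. The groups did not overlap for 10 of the 37 with KO below WT and for 4 with KO above WT, 27% and 10.8%, against 19.6% and 15.8% of all tested genes. The median log2 fold change was -0.10 over the 37 and 0.03 over all tested genes. Library totals without scaling factors shifted the median of all genes to -0.23, with 29 genes higher and 1389 lower in place of 197 and 908, and gave 0 of the 37 higher and 5 lower.

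Most calls were lost when certain libraries were left out. Of the 37 genes, 0 passed without WT 1 (2 higher and 7 lower at an unadjusted p under 0.05 in edgeR), 0 without KO 2 (2 and 10) and 0 without KO 3 (2 and 8). Calls over all tested genes fell in the same fits, from 197 higher and 908 lower with all libraries. They were 0 and 0 without WT 1 (629 and 1622 at an unadjusted p under 0.05 in edgeR), 47 and 258 without KO 2, and 2 and 0 without KO 3. Without WT 3, the library with muscle markers, Hsph1 alone of them passed, and without KO 1 Atf6, Dnajc3, Hspa5, Manf and Atf5 passed. Without WT 2 Atf6, Hsp90b1, Dnajc3, Hsph1 and Manf passed, the genes called with all libraries, and Sel1l as well. With each library left out in turn the log2 fold changes ran from -1.51 to -1.01 for Atf6, -1.28 to -0.91 for Hsp90b1, -1.02 to -0.74 for Dnajc3, -1.38 to -0.72 for Hsph1 and 0.78 to 1.15 for Manf.

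By role, the summed level of the ATF4 branch and that of ER folding genes were on opposite sides of WT. The 8 ATF4-branch genes summed to 402, 333 and 376 CPM in KO-labelled libraries 1, 2 and 3 and to 247, 305 and 234 CPM in WT, without overlap. The 13 ER folding genes summed to 1195, 1323 and 1189.8 CPM in the KO-labelled libraries and 1641, 1473 and 1702 CPM in WT, again without overlap and in the other direction. Sums of the sensor, degradation and heat-shock genes overlapped between the groups. Median log2 fold changes were 0.36 for the ATF4 branch, -0.55 for the sensors, -0.47 for ER folding, -0.16 for degradation and 0.09 for heat shock. On unscaled library totals the ATF4-branch sums overlapped, at 429, 295 and 301 counts per 1000000 in the KO-labelled libraries and 308, 349 and 215 in WT. The ER folding sums did not overlap there either, at 1278, 1173 and 952 in the KO-labelled libraries and 2043, 1682 and 1563 in WT. The heat-shock sums, which overlapped after scaling, were at 597, 679.97 and 617 in the KO-labelled libraries and 1031, 733 and 748 in WT without it, with no overlap. These sums follow their most abundant members and carry no test.

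**Figure D1:**
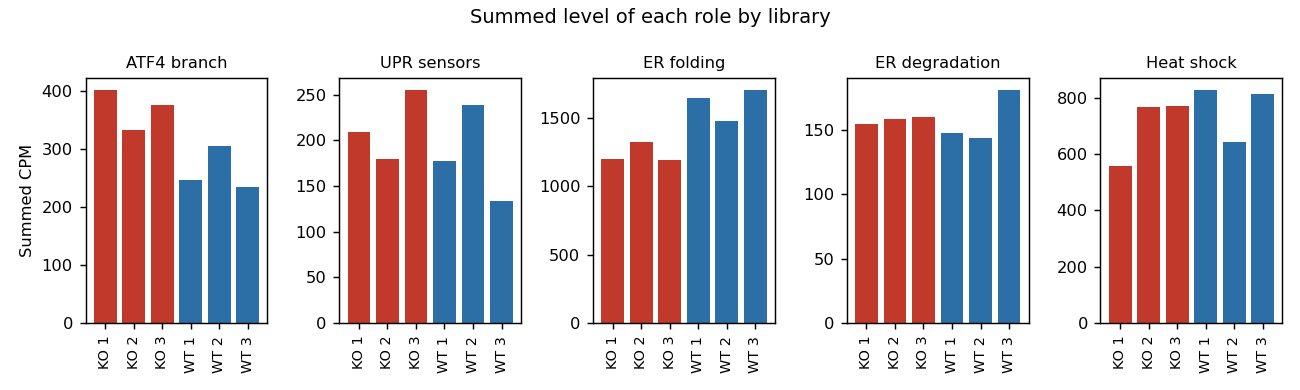
Summed level (CPM, vertical axis from 0) of the genes of each role in KO-labelled libraries 1 to 3 (red) and WT libraries 1 to 3 (blue), with a separate scale per panel. ER folding genes sum to 1189.8 to 1323 CPM under the KO label and 1473 to 1702 CPM in WT, and ATF4-branch genes to 333 to 402 CPM under the KO label and 234 to 305 CPM in WT.

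Per kilobase of the longest annotated transcript, the highest of the 37 group means under the KO label was that of Calr, the ER lectin chaperone calreticulin, at 136 ± 51.3 CPM per kb, against 117 ± 35.7 in WT (SD, n = 3 each). Hsp90ab1, the constitutive cytosolic Hsp90, followed with 112 ± 28.1 CPM per kb, against 163 ± 44.98 in WT, where it was first. The gap between these means was within the SD of either gene under the KO label and just above it in WT. Calr was highest in KO 2 and KO 3, but in KO 1 it lay below Atf4, Xbp1, Hsp90ab1 and Dnajb9. By group mean, Hspa5 ranked 10 of 37 under the KO label and 3 of 37 in WT, and Hsp90b1 ranked 16 under the KO label and 9 in WT. Atf4 ranked 5 under the KO label and 11 in WT, and Asns 7 under the KO label and 12 in WT. The sensor Ern1 was the lowest of the 37 in each group, at 0.625 CPM per kb under the KO label and 0.709 in WT.

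In the ATF4 branch 0 of 8 genes passed the threshold in edgeR, with 1 higher and 0 lower at an unadjusted p under 0.05. Of its 8 fold changes 6 were above 0, against 6207 of all 12068 tested genes. On unscaled library totals 5 of the 8 were above 0, where Ddit3 turned below 0. DESeq2 called Atf5 higher (log2 fold change 0.77) and no other gene of the branch, and limma-voom called 0. Atf4, the factor translated when eIF2 is phosphorylated, had 199.9, 109.7 and 128 CPM in KO-labelled libraries 1, 2 and 3, against 101, 133 and 63.8 CPM in the WT libraries. KO 1 was the highest of the 6 and WT 3 the lowest, and the groups overlapped. The log2 fold change of Atf4 was 0.56 (adjusted p = 0.238, SE 0.31). Atf5, a related factor under the same translational control, had 53.3, 52.7 and 80.05 CPM in the KO-labelled libraries and 38.2, 35.7 and 34.5 CPM in WT. All its KO-labelled values lay above WT, with KO 3 apart from the others, and the log2 fold change was 0.78 (adjusted p = 0.062, SE 0.24). Asns, asparagine synthetase and a target of ATF4 whose CARE is shown above, had 101, 124 and 127 CPM in the KO-labelled libraries and 67.8, 92.3 and 94.6 CPM in WT. Its groups did not overlap either, although KO 1 and WT 3 were close, and the log2 fold change was 0.47 (adjusted p = 0.189, SE 0.23).

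Further down the branch no target gene passed the threshold. Ddit3, the pro-apoptotic factor CHOP, had 21.5, 19.03 and 17.97 CPM in the KO-labelled libraries and 17.4, 19.5 and 16.2 CPM in WT. Its log2 fold change was 0.14 (adjusted p = 0.692, SE 0.23), and the groups overlapped in a narrow range. Trib3, a pseudokinase induced by ATF4 and CHOP, had 6.90, 6.32 and 4.39 CPM in the KO-labelled libraries and 4.003, 5.32 and 4.22 CPM in WT, a log2 fold change of 0.38 (adjusted p = 0.399, SE 0.30). KO 3 lay inside the WT range and the other KO-labelled libraries above it. Sesn2, a stress-induced inhibitor of mTORC1, had a log2 fold change of 0.33, Ppp1r15a, the subunit that directs phosphatase to eIF2, one of -0.10, and Chac1, a glutathione-degrading enzyme, one of -0.17. These genes overlapped between the groups, and Chac1, with 11 to 30 counts per library, was the thinnest measurement of the 37. A list of 32 other genes of the integrated stress response held 28 tested genes, of which 0 rose, 2 fell and 26 did not pass (edgeR; 5 higher and 3 lower at an unadjusted p under 0.05), with a median of 0.23. Those lower were Gpt2, a mitochondrial alanine transaminase, with 13 ± 6.23 CPM under the KO label and 34.6 ± 13.9 CPM in WT (SD, n = 3 each) and a log2 fold change of -1.41, (-1.36 with the length and GC offsets), and the RNA-activated eIF2 kinase Eif2ak2, with 3.24 ± 0.83 CPM under the KO label and 10.01 ± 4.59 CPM in WT and -1.63 (-1.11 with the offsets). The share of the list that fell, 7.14%, was close to the 7.52% of all tested genes.

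Among the sensors, Atf6 fell, Eif2ak3 was lower without passing, and Ern1 and Xbp1 overlapped between the groups. Atf6 had 7.96, 11.2 and 9.50 CPM in KO-labelled libraries 1, 2 and 3, against 30.1, 13.7 and 24.7 CPM in the WT libraries. The KO-labelled libraries lay close together and below all WT libraries, while WT spread widely and WT 2 stood nearest to them. Atf6 averaged 9.56 ± 1.64 CPM under the KO label and 22.8 ± 8.33 CPM in WT (SD, n = 3 each), a log2 fold change of -1.25 (adjusted p = 0.034, SE 0.31). In limma-voom it was -1.19 (adjusted p = 0.056), and after a correction for length and GC content (the length and GC offsets, explained with the plot of fold change against length) -0.50 (edgeR adjusted p = 0.201). Eif2ak3, the eIF2 kinase PERK, had 4.07, 6.40 and 2.14 CPM in the KO-labelled libraries and 9.19, 7.17 and 7.81 CPM in WT, without overlap but with KO 2 close to WT 2. Its log2 fold change was -0.93 (adjusted p = 0.117, SE 0.37), and 8.05% of its exonic bases overlap an antisense gene. Ern1, the kinase and endonuclease IRE1, had 3.80, 4.43 and 4.80 CPM in the KO-labelled libraries and 4.17, 4.50 and 6.10 CPM in WT, a log2 fold change of -0.18 (adjusted p = 0.703, SE 0.30). Xbp1, whose mRNA IRE1 splices, had 193, 157 and 239 CPM in the KO-labelled libraries and 134, 213 and 95.4 CPM in WT. Its log2 fold change was 0.41 (adjusted p = 0.360, SE 0.30), and WT 2 lay within the KO-labelled range. Gene counts do not separate spliced from unspliced Xbp1, so the activity of IRE1 is not measured here.

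**Figure D2:**
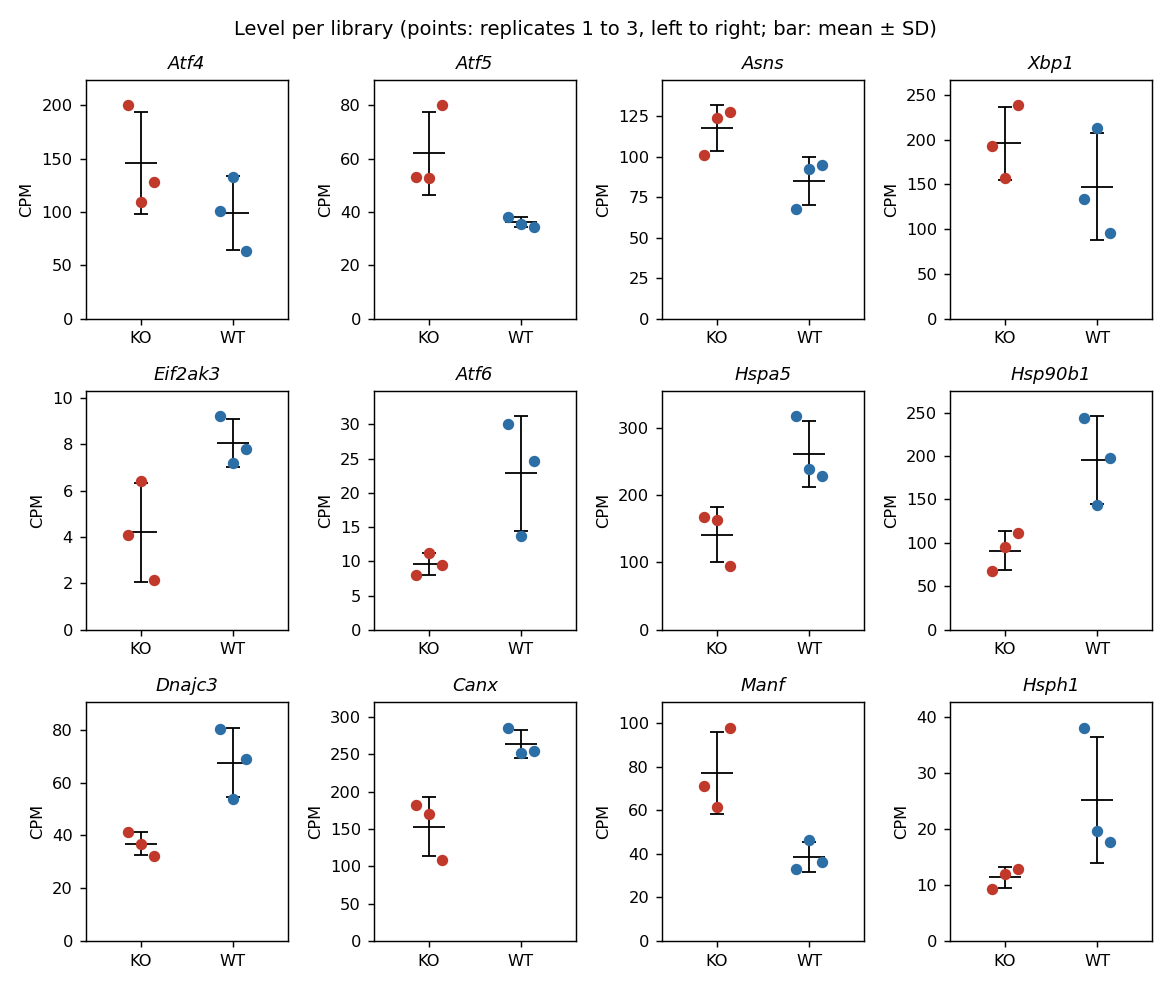
Level in CPM (vertical axis from 0) of 12 of the genes in each library, KO-labelled (red) and WT (blue); points are replicates 1 to 3 from left to right and bars the mean ± SD. Atf6, Hsp90b1, Dnajc3 and Hsph1 lie below WT in all KO-labelled libraries, Manf lies above it, and Atf4 and Xbp1 overlap.

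Among 13 ER folding genes 2 fell, 1 rose and 10 did not pass, against 7.52% lower and 1.63% higher of all tested genes. Of the 13 fold changes 8 were below 0, against 48.6% of all tested genes. On unscaled library totals 10 of the 13 were below 0, with Dnajb9 and Calr added. Hsp90b1, which folds integrins and Toll-like receptors among other clients, had 67.3, 94.8 and 111 CPM in KO-labelled libraries 1, 2 and 3, against 244, 144 and 198 CPM in the WT libraries. The highest KO-labelled library, KO 3, was below the lowest WT library, WT 2. Hsp90b1 averaged 91.04 ± 22.1 CPM under the KO label and 195 ± 50.3 CPM in WT (SD, n = 3 each), a log2 fold change of -1.10 (adjusted p = 0.033, SE 0.27), or -0.69 with the length and GC offsets (adjusted p = 0.222). Dnajc3, a co-chaperone of BiP and inhibitor of eIF2 kinases, had 41.1, 36.9 and 32.4 CPM in the KO-labelled libraries and 80.2, 53.8 and 68.8 CPM in WT. Here too the KO-labelled libraries were close together and below WT, and the log2 fold change was -0.88 (adjusted p = 0.043, SE 0.24), or -0.86 in limma-voom (adjusted p = 0.054). The call of Dnajc3 was lost with the length and GC offsets, at -0.22 (edgeR adjusted p = 0.490), and its sign turned when they used the median transcript, at 0.05. Hspa5, the Hsp70 chaperone BiP that holds the sensors inactive, had 167, 163 and 94.04 CPM in the KO-labelled libraries and 317, 239 and 228 CPM in WT. Its groups did not overlap, yet the log2 fold change of -0.89 (adjusted p = 0.059, SE 0.27) missed the threshold. DESeq2 called Hspa5 lower, at -0.90.

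Manf, which binds BiP and is released from cells under ER stress, was the sole member of the 37 that rose. It had 71.1, 61.6 and 97.9 CPM in KO-labelled libraries 1, 2 and 3, against 33.04, 46.3 and 36.2 CPM in the WT libraries. All KO-labelled libraries were above all WT libraries, KO 3 furthest, and Manf averaged 76.9 ± 18.8 CPM under the KO label and 38.5 ± 6.91 CPM in WT (SD, n = 3 each), a log2 fold change of 1.00 (adjusted p = 0.036, SE 0.25). On library totals without scaling factors it was at 0.71 (adjusted p = 0.152), and with the length and GC offsets at 0.73 (adjusted p = 0.083). Within each library, the log2 ratio of Hsp90b1 to Manf counts was -0.08, 0.62 and 0.18 in the KO-labelled libraries and 2.89, 1.63 and 2.45 in WT. This ratio does not depend on the scaling of the libraries, but it was not corrected for transcript length or GC content. The pair was chosen after the values were seen and the ratio carries no test. Exons of Manf share 4.71% and 4.14% of their bases with genes on the opposite strand in GENCODE M21, and those of Hsp90b1 10.3%, and the strand setting of the counting is not given in the sources used here. With genes on the same strand, exons of Hsp90b1 share 3.3% and 2.08% of their bases and those of Manf 0.397%.

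Of the lectin chaperones, Canx lay below WT without overlap and Calr overlapped, and neither passed. Calr, soluble calreticulin, had 174, 327 and 393 CPM in the KO-labelled libraries and 205, 217 and 345 CPM in WT. The groups overlapped, with KO 1 the lowest and KO 3 the highest of all 6, and the log2 fold change was 0.22 (adjusted p = 0.650, SE 0.32). Canx, its membrane-bound relative calnexin, averaged 153 ± 39.3 CPM under the KO label and 264 ± 18.8 CPM in WT a log2 fold change of -0.79 (adjusted p = 0.065, SE 0.25). Of the protein disulphide isomerases, Pdia3 (log2 fold change -0.52) and Pdia4 (-0.47) were below WT without overlap and Pdia6 (-0.26) overlapped, none of them past the threshold. Dnajb9, a co-chaperone that restrains IRE1, had 198, 168 and 119 CPM in the KO-labelled libraries and 106, 175 and 189 CPM in WT, a log2 fold change of 0.04 (adjusted p = 0.928, SE 0.28), with each group spread across the other. Creld2 (0.28) lay above WT without overlap, while Sdf2l1 (0.48) and the Hsp70-like exchange factor Hyou1 (-0.60) overlapped.

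Of the 8 genes with an ERSE in the promoter window, 6 had a fold change below 0, 75% against 48.6% of all tested genes. Past the threshold were 2 of 8 (25%, Hsp90b1 and Dnajc3, both lower), against 7.52% of all tested genes. Hspa5, Hsp90b1, Dnajc3 and Canx, 50% of the 8, were below WT without overlap, against 19.6% of all tested genes. Pdia6, Calr and Syvn1 overlapped, and Creld2 was above WT without overlap. Their fold changes ran from -1.10 for Hsp90b1 to 0.28 for Creld2, with a median of -0.62. With the length and GC offsets on the longest transcript all 8 were below 0, with a median of -0.36. Of the 8, 0 then passed in edgeR (0 higher and 2 lower at an unadjusted p under 0.05). Over the 37 genes 24 were below 0 in that fit, and over all 12068 tested genes 5737. On the median transcript Dnajc3, Calr and Creld2 were above 0, at 0.05, 0.07 and 0.04, and the rest of the 8 below it. A match in these letters is a description of the window and not a measured binding site.

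In ER-associated degradation 0 of 4 genes passed (edgeR; 0 higher and 1 lower at an unadjusted p under 0.05; 0 higher and 1 lower by DESeq2). Sel1l, the scaffold of the HRD1 ubiquitin ligase, averaged 18.03 ± 4.42 CPM under the KO label and 32.05 ± 7.45 CPM in WT and was below WT without overlap, at -0.83 (adjusted p = 0.076, SE 0.28). Syvn1, the ligase HRD1 itself, was at -0.46. Herpud1, a ligase-associated membrane protein with the ERSE-II shown above, had 54.9, 62.3 and 67.9 CPM in the KO-labelled libraries and 44.9, 48.3 and 65.2 CPM in WT, a log2 fold change of 0.23 (adjusted p = 0.517, SE 0.23), and WT 3 lay within the KO-labelled range. Edem1, which marks misfolded glycoproteins for degradation, was at 0.14. A list of 30 other ER folding, translocation and degradation genes held 28 tested genes, of which 0 rose, 2 fell and 26 did not pass (edgeR; 0 higher and 6 lower at an unadjusted p under 0.05), with a median of 0.02. Sec63, the BiP-recruiting subunit of the translocon, averaged 11.6 ± 3.68 CPM under the KO label and 39.7 ± 11.2 CPM in WT, a log2 fold change of -1.77 (SE 0.31), or -1.04 with the length and GC offsets (adjusted p = 0.062). Edem3, a mannosidase of the degradation pathway, averaged 9.71 ± 5.205 CPM under the KO label and 31.6 ± 8.70 CPM in WT, at -1.70 (SE 0.40), or -0.95 with the offsets (adjusted p = 0.140). The 2 of 28 that fell are 7.14% of the list, against 7.52% of all tested genes.

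Of 8 cytosolic heat-shock genes 1 fell, 0 rose and 7 did not pass, against 7.52% lower and 1.63% higher of all tested genes. Hsph1, an Hsp110 nucleotide exchange factor for Hsp70 with the HSE match shown above, had 9.29, 11.9 and 12.9 CPM in KO-labelled libraries 1, 2 and 3, against 38.2, 19.6 and 17.8 CPM in the WT libraries. The KO-labelled libraries were below all WT libraries, and WT 1 stood far above the other WT libraries. Hsph1 averaged 11.3 ± 1.85 CPM under the KO label and 25.2 ± 11.3 CPM in WT (SD, n = 3 each), a log2 fold change of -1.15 (adjusted p = 0.046, SE 0.32), and -0.72 without WT 1 (adjusted p = 0.233). The call of Hsph1 was lost under RLE scaling (edgeR adjusted p = 0.052) and upper-quartile scaling (adjusted p = 0.060), and in limma-voom (adjusted p = 0.066), and it was at -0.75 with the length and GC offsets (edgeR adjusted p = 0.163). Hspa8, the constitutive Hsp70, had 185, 311 and 314 CPM in the KO-labelled libraries and 188, 216 and 219 CPM in WT. KO 2 and KO 3 lay above WT and KO 1 just below it, for a log2 fold change of 0.38 (adjusted p = 0.320, SE 0.25). Hsf1, the factor that drives the response, had 2.12, 3.36 and 4.29 CPM in the KO-labelled libraries and 3.33, 2.87 and 4.85 CPM in WT, a log2 fold change of -0.17 (adjusted p = 0.765, SE 0.36), within the WT range apart from KO 1.

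The inducible Hsp70 genes Hspa1a and Hspa1b, the usual mark of heat shock, were low in all libraries. Hspa1a had 6.01, 14.2 and 7.56 CPM in the KO-labelled libraries and 5.47, 3.48 and 9.96 CPM in WT, and Hspa1b had 8.58, 7.96 and 5.51 CPM in the KO-labelled libraries and 4.91, 4.71 and 7.72 CPM in WT. Their log2 fold changes were 0.56 (adjusted p = 0.369, SE 0.42) and 0.35 (adjusted p = 0.448, SE 0.31), and KO 2 alone stood out, in Hspa1a. Their transcripts are 99.2% identical over 2201 bases, so the split of reads between them is uncertain, and 19% of Hspa1a's exonic bases overlap an antisense gene. Hsp90aa1, the inducible cytosolic Hsp90, had 19.2, 22.6 and 33.5 CPM in the KO-labelled libraries and 49.3, 24.6 and 30.7 CPM in WT, and WT 1 was the highest. Hsp90ab1 had 203, 310.1 and 337 CPM in the KO-labelled libraries and 471, 280.4 and 482 CPM in WT, with WT 2 inside the KO-labelled range. Their log2 fold changes were -0.48 (adjusted p = 0.305, SE 0.31) and -0.54 (adjusted p = 0.217, SE 0.28). Dnajb1, the main Hsp40 partner of Hsp70, was at 0.42. Processed pseudogenes of at least 95% identity over at least 300 bases exist for Hsp90aa1 and Hspa8 in GENCODE M21, which makes their counts less certain too.

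A list of other cytosolic chaperones and co-chaperones had 29 tested genes, of which 0 rose, 2 fell and 27 did not pass (edgeR; 2 higher and 5 lower at an unadjusted p under 0.05), with a median of 0.02. Those that fell were Hspa4 (37.02 ± 13.1 CPM under the KO label and 93.3 ± 21.3 CPM in WT, log2 fold change -1.33) and Hspa4l (5.88 ± 0.892 CPM under the KO label and 16.9 ± 7.57 CPM in WT, -1.52), which with Hsph1 make up the cytosolic Hsp110 family of Hsp70 exchange factors (SD, n = 3 each). These 2 are 6.9% of the list, against 7.52% of all tested genes, and the family was picked out with its values in view. With the length and GC offsets Hspa4 was at -0.93 (edgeR adjusted p = 0.070) and Hspa4l, whose longest transcript has 9479 bases, at -0.35 (adjusted p = 0.411). Immediate-early genes, which are known to respond to tissue digestion as heat-shock genes do, were followed beside them. Of 17 tested, 2 rose, 0 fell and 15 did not pass, against 1.63% higher and 7.52% lower of all tested genes. The phosphatase Dusp1 rose, with 328 ± 30.7 CPM under the KO label and 165 ± 32.6 CPM in WT, a log2 fold change of 0.99. So did the AP-1 factor Jund, with 76.2 ± 19.1 CPM under the KO label and 40.1 ± 2.52 CPM in WT, at 0.92. With the offsets Dusp1 was at 0.68 and Jund at 0.31, neither past the threshold. The summed level of the immediate-early genes was 1583 to 2824 CPM in the KO-labelled libraries and 1848 to 1948 CPM in WT, so that the WT range lay inside the other. The part of the digestion in the heat-shock values was not tested.

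**Figure D3:**
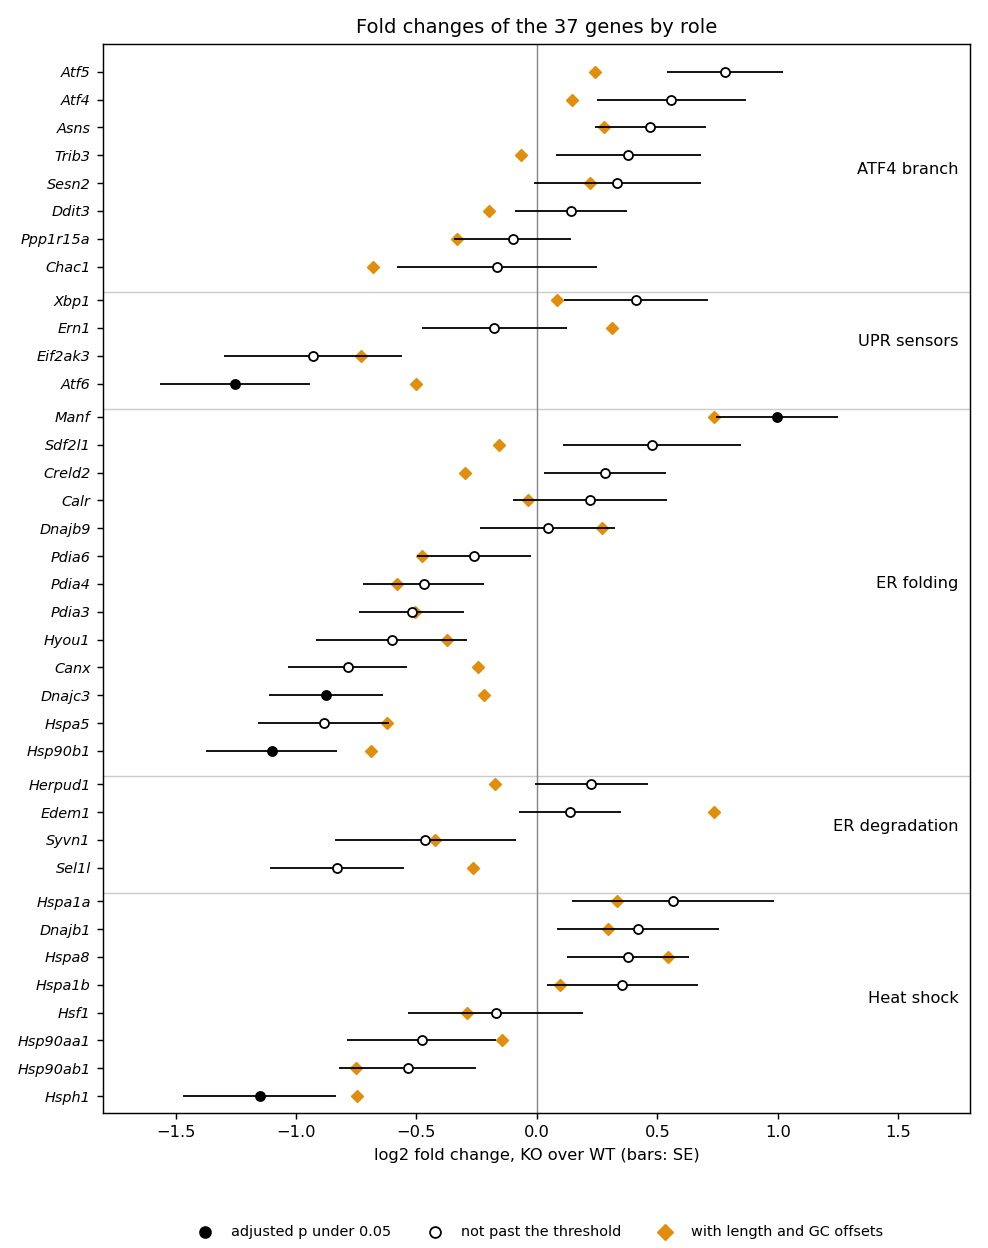
Log2 fold change (KO over WT, horizontal axis) of the 37 genes grouped by role, with bars of 1 SE; filled circles passed an adjusted p under 0.05 in edgeR and open circles did not, and diamonds are the values fitted with the length and GC offsets. Filled circles are Atf6, Hsp90b1, Dnajc3 and Hsph1 on the left and Manf on the right.

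Transcript length moved with these fold changes. The slope of a gene's log2 level on log2 length, relative to the mean of all libraries, was -0.249 to -0.093 in the KO-labelled libraries and -0.026 to 0.306 in WT. Among the 37 genes Spearman's rho between the log2 fold change and the length of the longest transcript was -0.647, close to the -0.583 over 11863 tested genes with a length; the points share the same 6 libraries, so this is a description. Of 10 members over 4000 bases, 9 had a fold change below 0 (median -0.81), and of 12 members of 2200 bases or less, 2 did (median 0.33). Of the 5 called genes, Atf6 (7246 bases), Dnajc3 (5141) and Hsph1 (4764) have long transcripts, Hsp90b1 (3222) one near the middle, and Manf (2247) a short one. With offsets for length and GC content fitted in each library, 0 of the 37 passed in edgeR (3 higher and 7 lower at an unadjusted p under 0.05), and 1 gene of all tested was higher and 0 lower. Atf6 was then at -0.50, Hsp90b1 at -0.69, Dnajc3 at -0.22, Hsph1 at -0.75 and Manf at 0.73.

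The roles differed in how much the offsets on the longest transcript moved them. The median of the ATF4 branch was 0.041 with offsets, against 0.36 without, and 4 of its 8 fold changes were then below 0, Ddit3 and Trib3 having changed sign. For the 13 ER folding genes the median was -0.30, against -0.47 without, and 11 of 13 fold changes were below 0, with Manf and Dnajb9 above. Over all 12068 tested genes 5737 were below 0 in that fit. Hspa5 was at -0.62, Pdia3 at -0.51, Pdia4 at -0.58 and Pdia6 at -0.47, each with an unadjusted p under 0.05 and none past the threshold. Medians were -0.21 for the sensors, -0.22 for degradation and -0.025 for heat shock. Of the heat-shock genes, Hsp90ab1 and Hsph1 were at -0.75 and Hspa8 at 0.54. Each had an unadjusted p under 0.05 in edgeR and none passed the threshold. Edem1, with a transcript of 6077 bases, was at 0.73 and Ern1 at 0.31 with the offsets. With the median transcript of each gene in place of the longest, Dnajc3 was at 0.05, Edem1 at 0.18 and Manf at 0.72, so offset values depend on that choice. Dnajc3 has 1 annotated transcript, so its own length was the same in both fits and its value moved with the trend fitted over all genes. In that fit the ATF4-branch median was 0.30, with Ddit3 at 0.24 and Trib3 at -0.043. Medians there were -0.33 for the sensors, -0.37 for ER folding, -0.20 for degradation and 0.054 for heat shock.

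**Figure D4:**
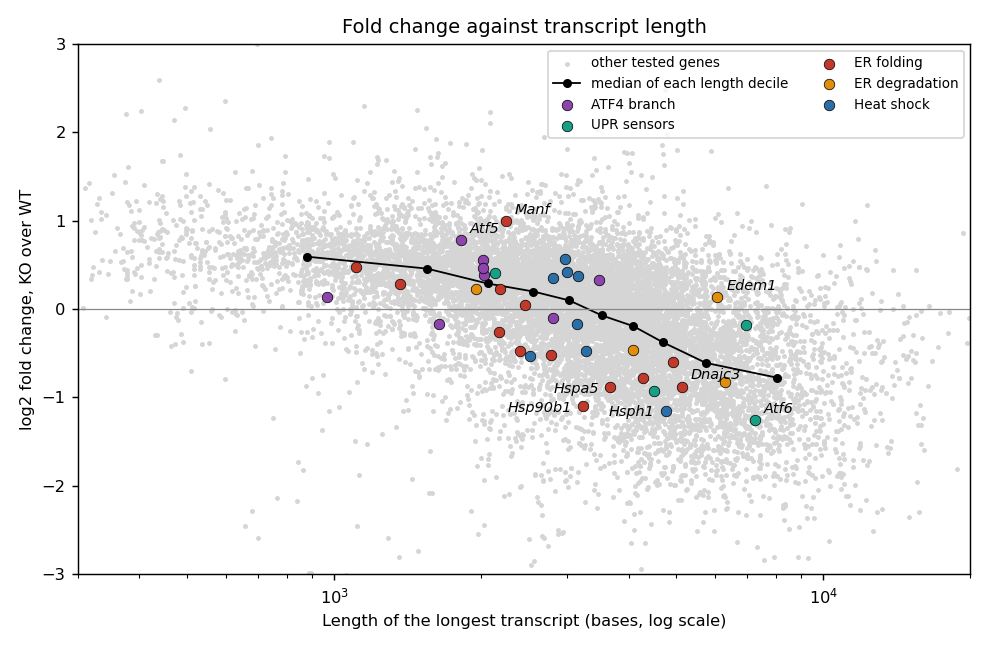
Log2 fold change (KO over WT, vertical axis) against the length of the longest transcript (bases, log scale) for all tested genes (grey) and the 37 genes coloured by role; the black line joins the medians of the length deciles, and genes outside the axes are not drawn. The decile medians run from 0.59 among the shortest genes to -0.78 among the longest, and Manf lies above the line and Hsp90b1, Hspa5 and Hsph1 below it.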

How the data were processed

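RNA from brown adipocyte pools was sequenced in 6 libraries, 3 labelled KO and 3 WT. The authors deposited raw counts per Ensembl gene, 1 file per library. The submitters' processing notes name STAR 2.5.4b and mm9. Counting program, strand setting and annotation release: not given in the sources used here. Symbols, transcript lengths and GC content came from GENCODE M21 by identifier, and promoters from RefSeq on GRCm38.p6; no coordinates were converted.

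Counts were tested in R 4.3.3 with edgeR 4.0.16: filterByExpr (minimum count 10, minimum total 15), TMM scaling, robust dispersions and the two-sided quasi-likelihood F test, adjusted by Benjamini-Hochberg over 12068 genes with a threshold of 0.05. Levels (CPM) use the TMM-scaled library size, and each SE was derived from the fold change and its F value. Each library is 1 replicate, and p-values measure the spread between pools of mice. Offsets were smooth trends (mgcv 1.9.3, basis size 6, prior count 2) of each gene's log2 ratio to its mean over libraries on log2 length and GC. Alternatives used DESeq2 1.42.0, with its own filter, and limma-voom (limma 3.58.1). The code was tested on simulated counts. Copies were found by BLAST (at least 95% identity over 300 bases).

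The 37 genes, the other lists and the alternatives were chosen with earlier results of these data known. Full values are given for genes past the threshold and for core genes of each role. Hspa14 had no matching identifier. Atf5, the Hsp110 family and the Hsp90b1 to Manf ratio were picked out with their values in view.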

Additional observations from a re-analysis of the deposited data

How the results depend on the processing

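Counts of all genes, higher then lower, were 197 and 908. They were 29 and 1389 on total counts, 493 and 1350 with DESeq2, 113 and 619 with limma-voom, 1 and 0 with the offsets, 83 and 142 with offsets on the median transcript, 0 and 0 with a replicate block and offsets together (1299 and 1176 at an unadjusted p under 0.05 in edgeR), 1 and 0 at an adjusted p under 0.01, and 748 and 1630 at 0.1. Leaving out each library gave 0 to 688 higher and 0 to 1383 lower. For the 37 genes, 1 higher and 4 lower became 0 and 5 on total counts, 2 and 7 with DESeq2, 1 and 1 with limma-voom, 0 and 0 with each of the 3 offset fits (3 and 7, 1 and 8, and 3 and 6 at an unadjusted p under 0.05), 0 and 0 at an adjusted p under 0.01 (2 and 9 at an unadjusted p under 0.05), and 2 and 7 at 0.1; leaving out each library gave 0 to 2 higher and 0 to 5 lower.

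Same-numbered libraries did not deviate together (correlations 0.145, -0.534 and 0.032), not every library correlated best with its own number, and the numbers were not taken to pair them. The replicate block gave 223 higher and 976 lower genes, and 1 and 4 of the 37. With it Dnajc3 was at -0.86 (edgeR adjusted p = 0.060) and Hspa5 at -0.92 (adjusted p = 0.042).

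One called gene changed sign, Dnajc3, at 0.054 with offsets on the median transcript. Uncalled genes changed sign as follows, and the cause of these changes and of those in the counts was not tested. On total counts Ddit3, Dnajb9, Calr, Herpud1 and Edem1 were at -0.12, -0.15, -0.053, -0.023 and -0.11. With the offsets Ddit3, Trib3, Ern1, Calr, Sdf2l1, Creld2 and Herpud1 were at -0.20, -0.064, 0.31, -0.035, -0.16, -0.30 and -0.17, and with the replicate block added at -0.19, -0.086, 0.33, -0.067, -0.18, -0.28 and -0.15. On the median transcript Trib3 and Herpud1 were at -0.043 and -0.061. Leaving out each library in turn gave -0.39 to 0.13 for Chac1, -0.21 to 0.0046 for Ppp1r15a, -0.18 to 0.22 for Dnajb9, -0.025 to 0.50 for Calr and -0.42 to 0.067 for Hsf1. Chac1, with 11 to 30 counts per library, had an SE of 0.42.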
